A study of Mus musculus with 8 samples.

Results

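The voltage-gated sodium, calcium and potassium channel genes of the fetal mouse hippocampus were taken by gene symbol from the table of read counts. The pattern covered the sodium channel alpha and beta subunits (Scn), the pore-forming alpha1 subunits of calcium channels (Cacna1), their alpha2delta (Cacna2d) and beta (Cacnb) subunits, and the potassium channel families named Kcna, Kcnb, Kcnc, Kcnd, Kcnf, Kcng, Kcnh, Kcnq and Kcns. Of the 16397 genes in the table, 63 carried such a symbol, and the 54 with a mean count of at least 10 over the 8 samples were kept: 9 sodium, 16 calcium and 29 potassium channel genes. Just inside this limit were Scn4b, with a mean count of 10, and Cacna1s, with 10.9, and just outside it were Cacna2d4, with 9.88, and Kcng2, with 9.62. The limit also left out Kcnc4, Kcng3, Kcng4, Kcnh6, Kcns3, Scn4a and Scn11a. Scn4b was the only kept gene with a mean count under 10 in one of the groups (8.25 in IUGR and 11.8 in sham), so no kept gene passed through high counts in IUGR alone. The pattern does not match Scn2a1, the symbol under which the table lists the sodium channel gene also called Scn2a. Its values are given beside those of the other sodium channels, but it is in none of the counts below.

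All 8 samples were hippocampi of C57Bl/6J embryos at E15.5. In the IUGR (intrauterine growth restriction) group, 4 samples came from embryos of dams that carried a micro-osmotic pump releasing U-46619, a thromboxane A2 analog that raises maternal blood pressure, from E12.5. The 4 sham samples came from dams that had surgery on the same day of gestation and carried a pump with vehicle only, so both groups shared pump implantation. The pump was carried by the dam, so the exposure was not limited to the hippocampus of the embryo. IUGR samples are named T1-1, T1-3, T1-4 and T1-5 and sham samples S1-4, S1-6, S3-1 and S3-4, and values are given in these orders. The sources do not say what the prefixes stand for, and since T1 occurs only in IUGR, prefix and group cannot be told apart. No source used here says that samples of a group came from separate litters, so p values measure only the spread between these samples.

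Voltage-gated channels open when the membrane potential changes and let 1 kind of ion pass. Sodium channels carry the upstroke of the action potential, calcium channels turn depolarization into calcium entry that drives transmitter release and gene transcription, and potassium channels repolarize the membrane and set how often a neuron fires. Pore-forming alpha subunits work with auxiliary subunits that move them to the membrane and tune their gating. In the fetal brain the set of channels changes as newborn neurons leave the ventricular zone and become excitable, and Scn3a is known as a sodium channel gene of immature neurons.

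Total counts were between 12919546 and 16672463 in IUGR samples and between 11212632 and 15405748 in sham samples. Counts are expressed below as CPM, counts per 1000000 counts with library sizes adjusted by edgeR's TMM method, and levels of different genes are compared only after division by exon length (CPM per kilobase). The tissue label was checked with 9 markers of hippocampal and cortical identity, such as Emx2 and Prox1, and none was at 0 in any sample. Their summed level ranged from 1047 to 1294 CPM in the IUGR group and from 889 to 1813 CPM in the sham group. A pair of samples stood apart from the rest of their groups. T1-3 was the highest IUGR sample for 28 of the 54 genes, with a median log2 difference of 0.31 from the other IUGR samples, and S1-6 was the highest sham sample for 28 of the 54, with a median of 0.36. In tissue of this kind, fewer cells of a type and less RNA per cell cannot be told apart.

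Per kilobase, auxiliary subunits and a few pore genes had the highest levels. Cacnb3, a cytoplasmic beta subunit of calcium channels, came first at 21.1 CPM per kilobase over all samples, and Scn3b, a sodium channel beta subunit with one membrane span, was next at 13.8. Scn3a was the most abundant pore-forming gene at 8.501 CPM per kilobase, close to Cacna2d1, which encodes the alpha2delta subunit bound by gabapentin, at 8.09. Kcnd3, a pore gene of the transient A-type potassium current, stood at 6.34, and Kcnh7, of the erg potassium channels, at 5.89. At the other end were Cacna1s, the skeletal muscle calcium channel, at 0.124, Scn4b at 0.155 and Kcna2, a juxtaparanodal channel of mature myelinated axons, at 0.202. Near neighbours in this order, such as Scn3a and Cacna2d1 or Kcnd3 and Kcnh7, overlapped in their spread over samples.

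**Figure D1:**
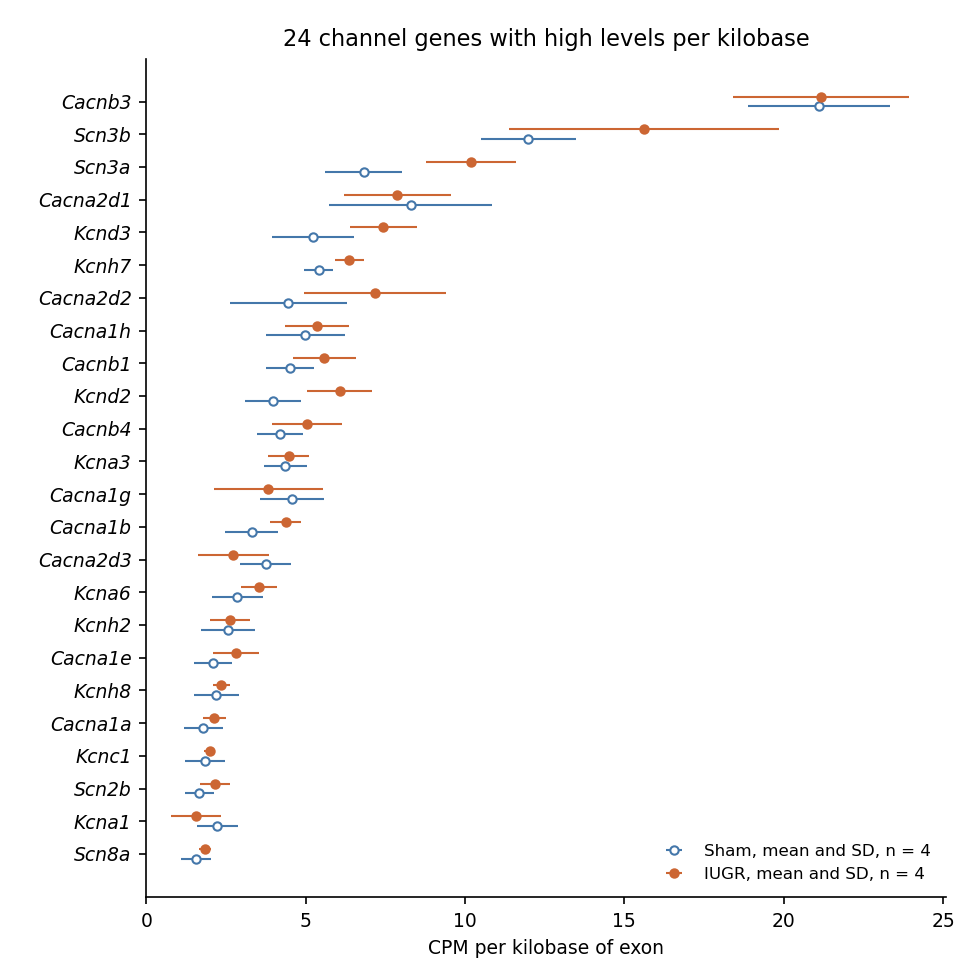
Levels of 24 channel genes that were among the highest per kilobase, as CPM per kilobase of exon (x axis) for each gene (y axis), with the mean and SD of 4 sham (open) and 4 IUGR (filled) samples. Cacnb3 stood highest in both groups, with the same mean level in each to within the SD, whereas for Scn3a the IUGR mean of 10.2 lay above the sham mean of 6.82.

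The first question was which channel genes differed between IUGR and sham hippocampi. Counts were compared by the quasi-likelihood test of edgeR, with p values adjusted after Benjamini and Hochberg over 13707 protein-coding genes, and genes that changed at least 2-fold (1 on the log2 scale) with an adjusted p no higher than 0.05 were called. None of the 54 was called, against 1.46% of all genes tested (0.102% higher and 1.36% lower in IUGR). DESeq2's Wald test and limma-voom called 1 of the 54 each, Scn9a in both cases, against 3.10% and 2.39% of all genes. At an unadjusted p under 0.05, 8 of the 54 (14.8%) were higher in IUGR, against 4.46% of all genes. They included Scn3a, Scn9a, Cacna2d2, Kcnd2, Kcnd3, Kcnf1 and Kcnq5. No member was lower at that p, against 6.62% of all genes. IUGR and sham values did not overlap for 3 of the 54 (5.56%), Scn3a, Scn9a and Kcnq5, each higher in IUGR, against 2.08% of all genes. No member lay lower in IUGR without overlap, against 5.06% of all genes.

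The direction was shared more widely than these counts show. The log2 fold change of IUGR over sham was above 0 for 44 of the 54 (81.5%), against 44.5% of all genes, and its median was 0.25 over the channel genes and −0.02 over all genes. These are descriptions of the set and were not tested. With each sample left out in turn, 39 to 45 of the 54 were above 0. The summed CPM of the 54 was 1306, 1600, 1296 and 1423 in IUGR and 1074, 1357, 1181 and 1108 in sham samples, or 1406 ± 142 against 1180 ± 126 (SD, n = 4), a ratio of 1.19. The groups overlapped in this sum, because sham sample S1-6 lay above IUGR samples T1-1 and T1-4. By type of channel, the ratio of mean summed CPM was 1.43 for sodium, 1.10 for calcium and 1.20 for potassium channel genes.

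**Figure D2:**
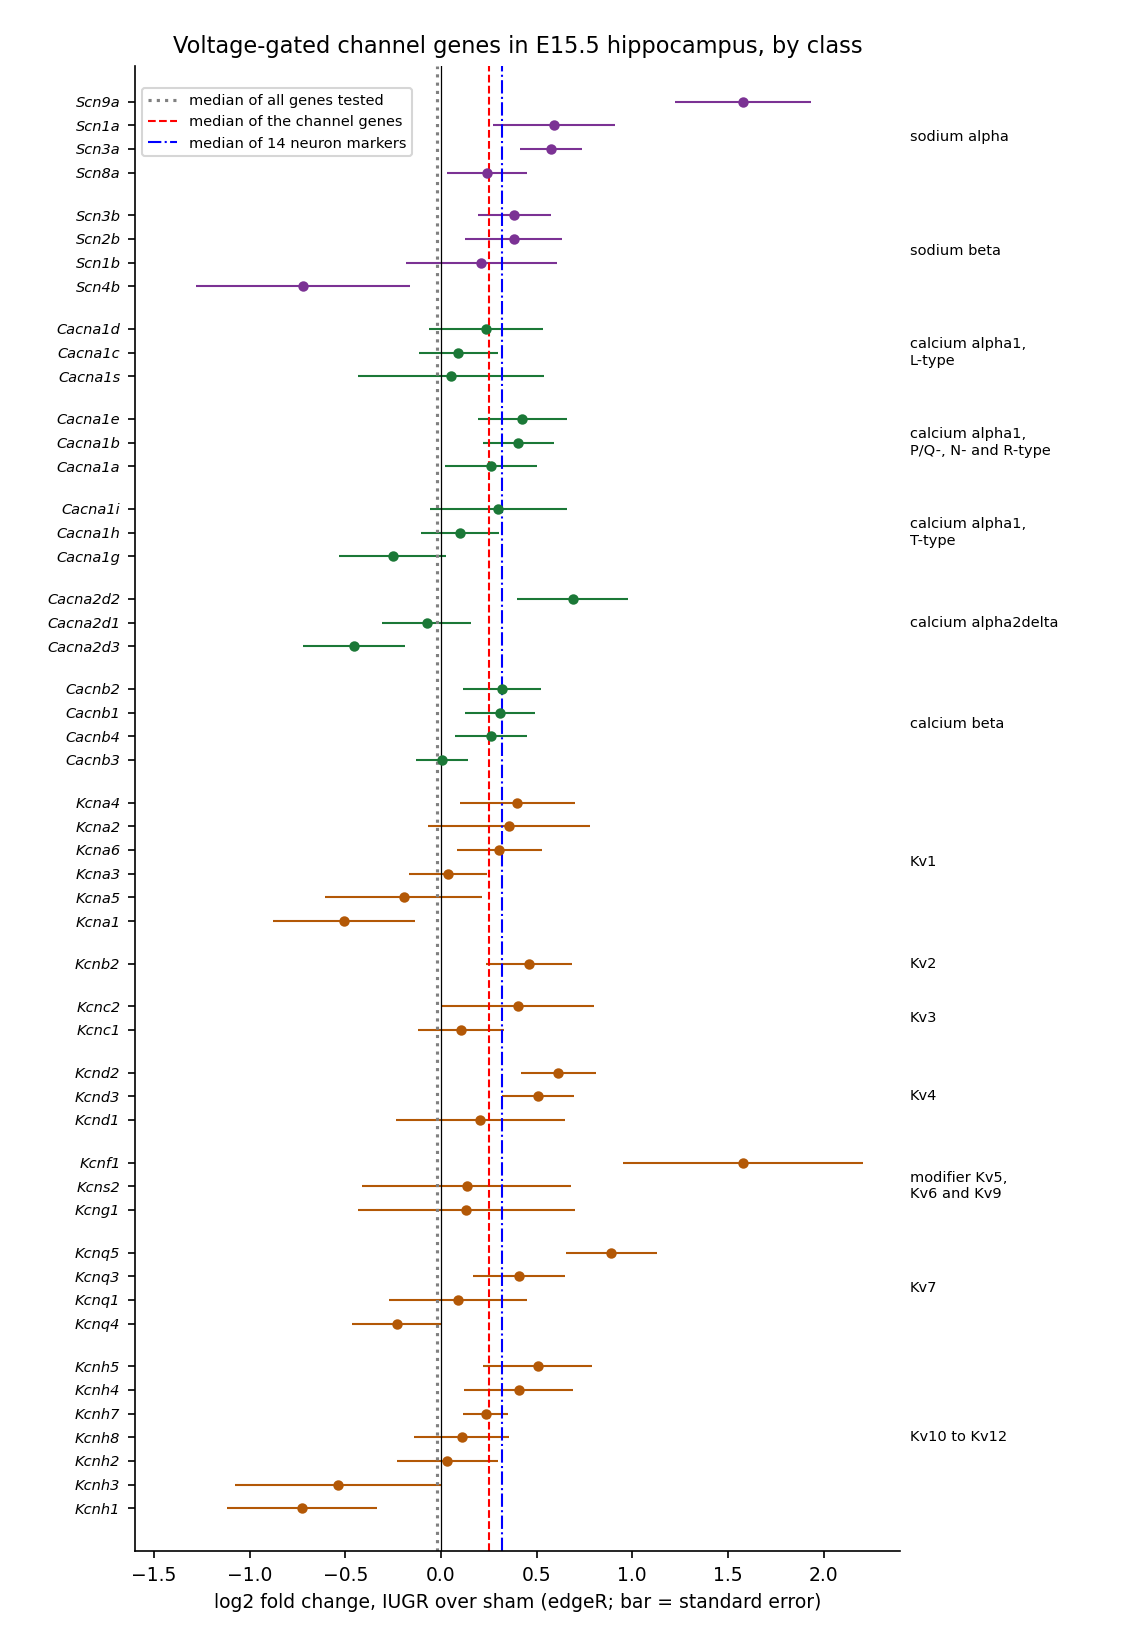
Log2 fold change of IUGR over sham (x axis) with its standard error for 50 of the 54 channel genes (y axis), grouped by class and colored by ion (sodium purple, calcium green, potassium brown). Vertical lines mark the median of all genes tested (−0.02), of the channel genes (0.25) and of 14 neuron markers (0.32), and most points lie above 0.

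The counts depended on single samples, S1-6 above all. Without S1-6, 17 of the 54 were higher in IUGR at an unadjusted p under 0.05 and 14 did not overlap, against 6.17% and 4.46% of all genes in the same fit, and 1 gene, Kcnf1, was called, against 0.934% of all genes. Without S3-4 or S3-1, the count at that p was 5, against 2.74% and 4.44% of all genes. With fewer samples, groups are apart more often for any gene. The count without overlap was 5 without T1-1 (3.76% of all genes), 5 without S1-4 (2.801%) and 6 without T1-4 (4.10%). Against S1-4 and S1-6 alone, 4 of the 54 were higher at an unadjusted p under 0.05 (2.47% of all genes), and against S3-1 and S3-4 alone, 13 were (4.66% of all genes). The median log2 fold change of the 54 stayed between 0.19 and 0.37 with any single sample left out.

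Values of general neuron markers moved with these results. All 14 neuron markers listed, among them Snap25, Syt1, Tubb3 and Map2, had a log2 fold change above 0, with a median of 0.32, and 7 of the 14 were higher at an unadjusted p under 0.05, against 4.46% of all genes. Their summed level lay between 6263 and 6819 CPM in every IUGR sample and between 4596 and 5723 CPM in every sham sample, without overlap, and none was at 0 in any sample. Radial glia markers, by contrast, had 4 of 9 above 0, with a median of −0.10 and sums of 2933 to 3516 and 3125 to 3796 CPM, which overlapped. Choroid plexus markers went the other way. All 12 tested were lower in IUGR at an unadjusted p under 0.05 and 3 of them were called, against 6.62% and 1.36% of all genes, with summed levels between 45.7 and 354 CPM for IUGR and between 949 and 1396 CPM for sham samples, and Tmem72 was at 0 in at least 1 sample. Whether neuron or choroid plexus content had a part in the channel values was not tested.

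Other cell types listed had medians above 0 as well. Meningeal fibroblast markers had 5 of 5 above 0 and a median of 1.12, with sums from 45.2 to 1360 CPM in IUGR, the highest in T1-3, and 171 to 351 CPM in sham. The medians were 0.40 for 8 endothelial and mural markers, 0.18 for 8 interneuron markers, 0.38 for 6 Cajal-Retzius markers, 0.78 for 4 oligodendrocyte lineage markers, 0.21 for 4 microglia markers and 0.08 for 3 striatal markers. For 2 thalamic markers the median was −0.56, and for the 9 hippocampal and cortical identity markers it was −0.34. Of these 9 identity markers, 8 were below 0 and 1 was above. At an unadjusted p under 0.05 (edgeR), 2 of the 9 were lower and 0 higher, against 6.62% and 4.46% of all genes. The part of these cells in the channel values was not tested.

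Sodium channel alpha subunits, which form the pore, had the highest ratio of summed levels. All 5 genes of the class had a log2 fold change above 0, with a median of 0.59. Their summed level was 165, 205, 190 and 213 CPM in IUGR and 145, 144, 132 and 90.7 CPM in sham samples, so every IUGR sample lay above every sham sample, with a ratio of means of 1.51. This separation was not particular to sodium channels, since the sums of the Kv4 class and of the modifier subunits were also apart, with ratios of 1.45 each. The median stayed between 0.46 and 0.77 with any single sample left out.

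Scn9a, best known as a sodium channel of sensory neurons that amplifies small depolarizations, had the lowest p of all 54 genes. It lies on the minus strand of chromosome 2 at 66480080 to 66634962 (GRCm38). Its level was 9.44, 20.96, 16.8 and 17.6 CPM in IUGR and 7.21, 7.79, 3.92 and 2.85 CPM in sham samples, from counts of 40 to 341. The lowest IUGR sample, T1-1, was close above the highest sham sample, S1-6, and the groups did not overlap. The means were 16.2 ± 4.86 and 5.44 ± 2.43 CPM (SD, n = 4), and the log2 fold change was 1.58 (SE 0.35), with an adjusted p of 0.0584 (edgeR). An exact two-sided permutation test of CPM gave p = 0.0286, the smallest that 4 against 4 samples allow. The adjusted p was 0.000835 with DESeq2, 0.0418 with limma-voom and 0.0489 in edgeR with no count filter. Over all alternatives it ranged from 0.000835 to 0.370 and was above 0.05 in every other one, and the log2 fold change was between 1.11 and 2.29.

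Scn3a (chromosome 2, 65457118 to 65567627, minus strand) differed less in fold but at a higher level. Its level was 103, 133, 128 and 144 CPM in IUGR and 95.9, 87.2, 93.8 and 63.2 CPM in sham samples. Here too the groups did not overlap, with T1-1 nearest to the sham samples. The means were 127 ± 17.6 and 85.0 ± 15.03 CPM (SD, n = 4), and the log2 fold change of 0.58 (SE 0.16) had an adjusted p of 0.130 (edgeR), with 0.0206 by DESeq2 and a range of 0.0206 to 0.492 over the alternatives.

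Among the other alpha genes were Scn1a, a channel of fast-spiking interneurons in the mature brain, with a log2 fold change of 0.59 (SE 0.32), and Scn8a, the main channel of mature axon initial segments and nodes, with 0.24 (SE 0.21). Neither had an unadjusted p under 0.05.

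Scn2a1, outside the symbol pattern, is a sodium channel gene of early axon initial segments and unmyelinated axons. Its level was 39.3, 73.7, 37.9 and 56.3 CPM in IUGR and 20.3, 29.0, 32.2 and 23.7 CPM in sham samples, without overlap. Means were 51.8 ± 16.8 and 26.3 ± 5.30 CPM (SD, n = 4), and the log2 fold change of 0.98 (SE 0.24) had an adjusted p of 0.0774 (edgeR).

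With Scn2a1 included, each gene's share of the alpha subunit reads per kilobase was computed within each sample. Scn3a held 52.5 ± 3.78% in IUGR and 56.4 ± 3.41% in sham samples (SD, n = 4), and Scn2a1 held 20.6 ± 4.11% and 17.3 ± 3.73%. Scn8a held 9.66 ± 1.96% and 12.8 ± 2.38%. The groups overlapped in each of these shares. The share of Scn9a was 6.43 ± 1.32% in IUGR and 3.43 ± 1.15% in sham samples, and here the values, 4.56% to 7.43% and 2.38% to 4.50%, did not overlap. These shares are a description and were not tested.

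**Figure D3:**
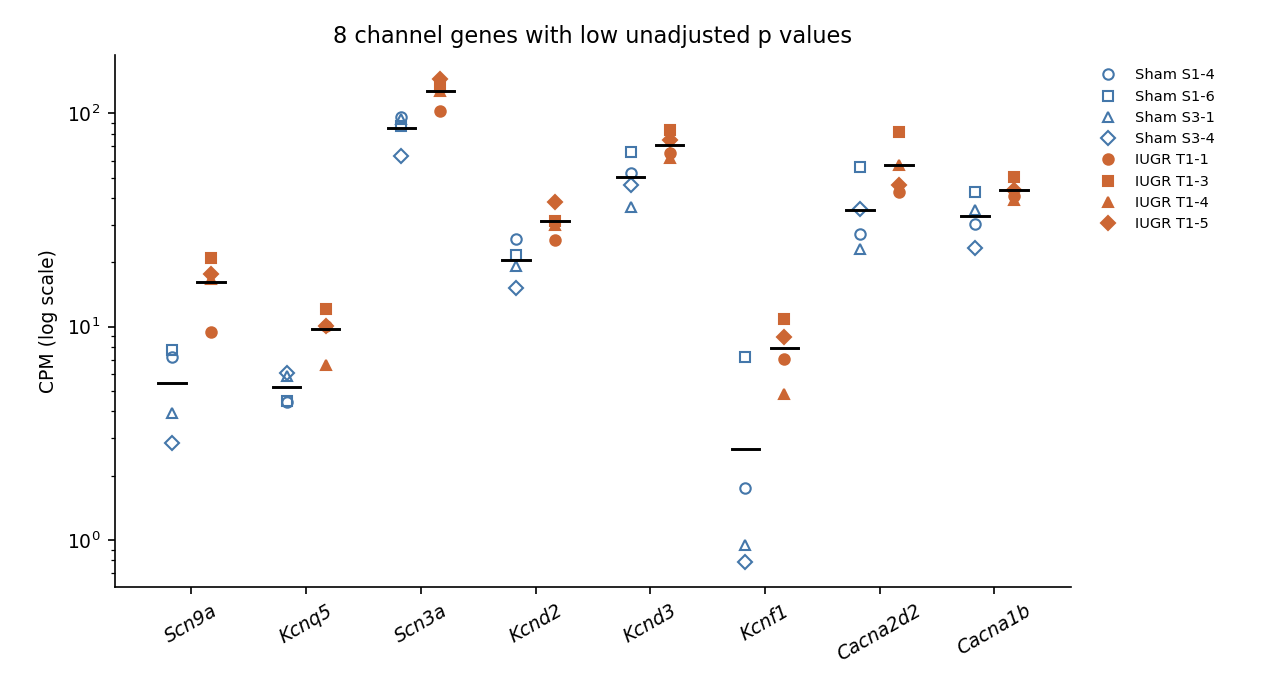
CPM on a log axis in each of the 8 samples for 8 channel genes with low unadjusted p values, with open symbols for sham, filled symbols for IUGR and a bar at each group mean. Groups do not overlap for Scn9a, Kcnq5 and Scn3a, and S1-6 is the highest sham sample for 5 of the 8 genes.

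Scn3a, Scn2a1, Scn1a and Scn9a lie together on chromosome 2, between 65457118 and 66634962, a stretch that holds 7 genes of the table. Such tandem sodium channel genes arose by duplication, and their likeness could let reads be shared between them, depending on how the counting program treated multiply placed reads. The genes between them are no channel genes, and each had a smaller log2 fold change than the 4 sodium channels. It was 0.47 (SE 0.18) for Csrnp3, a nuclear protein gene, −0.18 (SE 0.38) for Galnt3, a glycosyltransferase gene, and 0.12 (SE 0.15) for Ttc21b, a gene of ciliary transport. The value of Csrnp3 lay within the standard error of Scn3a (0.58, SE 0.16) and of Scn1a (0.59, SE 0.32).

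**Figure D4:**
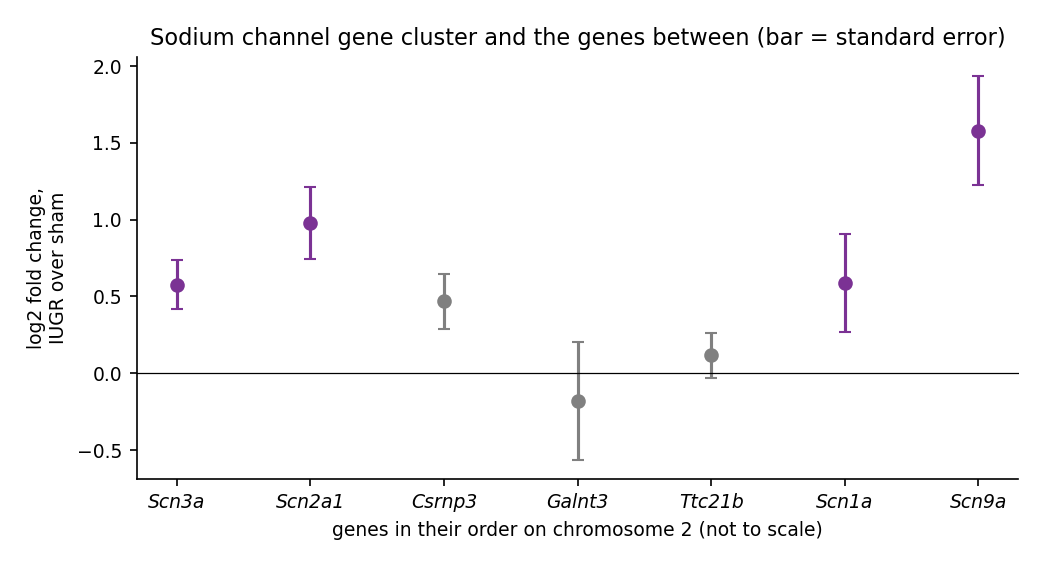
Log2 fold change of IUGR over sham (y axis, with standard error) for the 7 genes of the table in the sodium channel cluster, in their order on chromosome 2 (x axis, not to scale), with sodium channel genes in purple and the others in grey. The 4 sodium channel genes lie between 0.58 and 1.58 and the genes between them from −0.18 to 0.47.

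Sodium channel beta subunits, which anchor and modulate the alpha subunits and act in cell adhesion, lay above 0 in 3 of 4 cases (median log2 fold change 0.29). Scn3b (chromosome 9, 40269217 to 40291618, plus strand) had 64.9, 116, 70.6 and 89.4 CPM in IUGR and 56.6, 61.5, 75.1 and 68.6 CPM in sham samples. T1-3 was far above the other IUGR samples, and the groups overlapped. The log2 fold change was 0.38 (SE 0.19), with an adjusted p of 0.537 (edgeR). Scn4b, at counts near the limit, was the only sodium channel gene below 0, with −0.72 (SE 0.56).

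Calcium channel alpha1 subunits divide into high-voltage-activated L-type channels, which couple activity to transcription, P/Q-, N- and R-type channels, which serve transmitter release, and low-voltage-activated T-type channels, which act near the resting potential. None of the 9 alpha1 genes had an unadjusted p under 0.05, which among so few genes is near the shares of all genes (4.46% higher and 6.62% lower). Medians of the log2 fold change were 0.09, 0.40 and 0.10 in these classes. The ratio of mean summed CPM was 1.09 for L-type, 1.31 for P/Q-, N- and R-type and 0.973 for T-type genes, and IUGR and sham sums overlapped in each class.

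Of the release-type genes, Cacna1b, the N-type pore, came nearest to the threshold. It had 40.8, 50.2, 39.4 and 43.7 CPM in IUGR and 30.4, 42.8, 35.3 and 23.2 CPM in sham samples. Only S1-6 among sham samples reached the IUGR range. The log2 fold change was 0.40 (SE 0.19), with an unadjusted p of 0.0549 and an adjusted p of 0.468 (edgeR). Cacna1e, the R-type pore, had 70.4, 96.1, 53.5 and 64.5 CPM in IUGR and 35.8, 71.5, 57.5 and 47.1 CPM in sham samples, with a log2 fold change of 0.43 (SE 0.23) and T1-3 highest. Cacna1a, the P/Q-type pore, had 0.26 (SE 0.24).

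For L-type and T-type genes, log2 fold changes lay between −0.25 and 0.30. Cacna1c had 25.9, 33.3, 24.0 and 25.4 CPM in IUGR and 20.9, 36.3, 23.1 and 21.7 CPM in sham samples, with a log2 fold change of 0.09 (SE 0.21). S1-6 was above every other sample for this gene. Cacna1d, the L-type pore that opens at more negative potentials, had 8.99, 15.7, 7.67 and 16.2 CPM in IUGR and 8.13, 14.98, 9.02 and 9.20 CPM in sham samples, with 0.24 (SE 0.30). Among T-type pores, Cacna1h was the most abundant per kilobase, with 48.3, 64.4, 54.9 and 41.4 CPM in IUGR and 33.2, 62.7, 50.3 and 48.8 CPM in sham samples. Its log2 fold change was 0.10 (SE 0.20), and it was −0.02 without S1-4. Cacna1i had 5.25, 9.53, 5.81 and 6.77 CPM in IUGR and 3.33, 10.04, 4.55 and 4.35 CPM in sham samples, with a log2 fold change of 0.30 (SE 0.36), whereas Cacna1g had −0.25 (SE 0.28).

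The alpha2delta subunits, extracellular proteins that bring calcium channels to the surface and take part in synapse formation, pointed in different directions. Cacna2d2 (chromosome 9, 107399612 to 107529343, plus strand) had 42.8, 81.8, 57.2 and 46.1 CPM in IUGR and 27.1, 55.8, 23.2 and 35.4 CPM in sham samples. S1-6 lay above T1-1 and T1-5, so the groups overlapped. The means were 57.0 ± 17.7 and 35.4 ± 14.6 CPM (SD, n = 4), and the log2 fold change of 0.69 (SE 0.29) had an adjusted p of 0.397 (edgeR). Cacna2d1 had 104, 118, 68.9 and 99.8 CPM in IUGR and 71.2, 81.3, 123 and 137 CPM in sham samples, with a log2 fold change of −0.08 (SE 0.23). Its sham samples differed by prefix, with both S3 samples above both S1 samples, and the log2 fold change was 0.36 against the S1 samples alone. It was also above 0 without T1-4 (0.06), without S3-4 (0.09) and without S3-1 (0.02). For Cacna2d3 the log2 fold change was −0.46 (SE 0.27).

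Calcium channel beta subunits, which bind the alpha1 subunits from the cytoplasm, all lay above 0 (4 of 4, median log2 fold change 0.29). Cacnb3, the most abundant channel gene per kilobase, had 98.3, 80.3, 88.4 and 72.5 CPM in IUGR and 80.2, 96, 87.1 and 75.4 CPM in sham samples. Its means, 84.9 ± 11.1 and 84.7 ± 8.93 CPM (SD, n = 4), differed by far less than the spread, and the log2 fold change was 0.00 (SE 0.14), with small values of either sign when single samples were left out. Cacnb2 had 8.99, 12.6, 9.69 and 12.2 CPM in IUGR and 11.1, 7.70, 8.16 and 7.98 CPM in sham samples, where S1-4 alone reached the IUGR range, and its log2 fold change was 0.32 (SE 0.21).

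**Figure D5:**
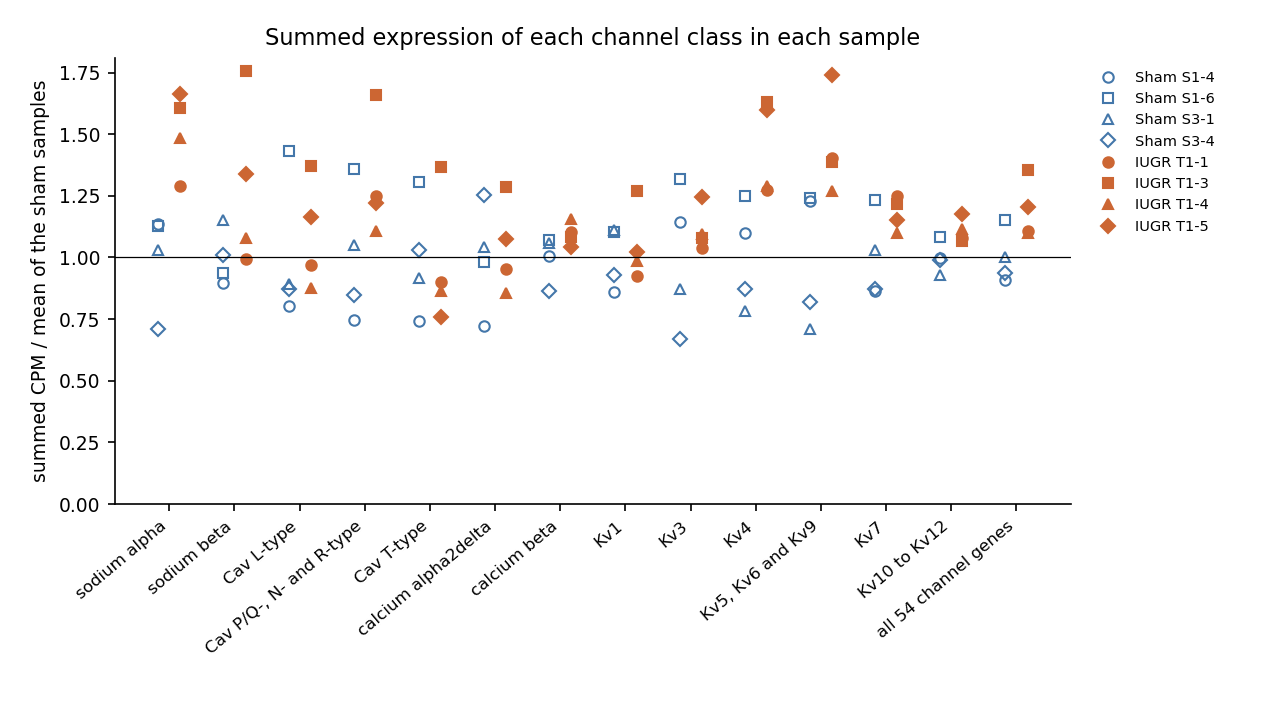
Summed CPM of 13 channel classes (x axis) in each sample, divided by the mean of the 4 sham samples (y axis from 0), with open symbols for sham and filled symbols for IUGR. IUGR samples lie above all sham samples for sodium alpha, Kv4 and the modifier subunits, with ratios of means of 1.51, 1.45 and 1.45, and overlap with sham samples in the other classes shown and in the sum of all 54 genes.

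Potassium channel genes of the Kv4 family (Kcnd) form the pore of the transient A-type current, which delays firing in dendrites. All 3 had a log2 fold change above 0, with a median of 0.51, and their summed level was 91.4, 117, 92.5 and 115 CPM in IUGR and 78.9, 89.7, 56.2 and 62.5 CPM in sham samples, without overlap. Kcnd2 (chromosome 6, 21215503 to 21729805, plus strand) had 25.5, 31.3, 29.9 and 38.3 CPM in IUGR and 25.9, 21.6, 19.2 and 15.1 CPM in sham samples. Only S1-4 reached the IUGR range, just above T1-1. The log2 fold change was 0.61 (SE 0.20), with an adjusted p of 0.200 (edgeR).

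Kcnd3 (chromosome 3, 105452330 to 105674002, plus strand) had 65.0, 83.9, 61.5 and 74.9 CPM in IUGR and 52.2, 65.9, 36.4 and 46.3 CPM in sham samples. S1-6 was the only sham sample in the IUGR range. The log2 fold change was 0.51 (SE 0.19), with an adjusted p of 0.295 (edgeR). A gene on the other strand, Kcnd3os, overlaps it, and the strand setting of the count is not given in the sources used here. Kcnd1 had counts near the limit and a log2 fold change of 0.21 (SE 0.44).

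The Kv2 genes encode the delayed rectifiers of neuronal cell bodies. Kcnb2 (chromosome 1, 15287254 to 15723750, plus strand) had 11.5, 11.9, 8.68 and 13.4 CPM in IUGR and 6.01, 7.79, 10.7 and 8.48 CPM in sham samples. S3-1 alone among sham samples lay above T1-4, the lowest IUGR sample. The log2 fold change was 0.46 (SE 0.23), with an adjusted p of 0.518 (edgeR).

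Subunits of the Kv5, Kv6 and Kv9 families do not form channels by themselves and modify Kv2 channels. Kcnf1 (chromosome 12, 17172100 to 17176888, minus strand) had 7.04, 10.8, 4.803 and 8.97 CPM in IUGR and 1.76, 7.19, 0.941 and 0.784 CPM in sham samples. Of the sham samples, 3 lay under every IUGR sample, and S1-6 lay among the IUGR samples. The means were 7.91 ± 2.58 and 2.67 ± 3.04 CPM (SD, n = 4), and the log2 fold change of 1.58 (SE 0.63) had an adjusted p of 0.344 (edgeR). Without S1-6 it was 2.81 with an adjusted p of 0.0235, and under all alternatives it was between 0.82 and 3.21.

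Kcns2, another modifier subunit, had 9.59, 1.78, 9.10 and 13.9 CPM in IUGR and 14.7, 5.11, 6.98 and 4.56 CPM in sham samples. Its lowest value was in T1-3, the highest IUGR sample for 28 of the 54 genes, and its log2 fold change of 0.13 (SE 0.55) changed sign under several alternatives. Kcng1 also had 0.13 (SE 0.57).

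Some Kv7 channels (Kcnq) carry the M-current, a slow potassium current that restrains repetitive firing. Of the 5 Kcnq genes, 4 had a log2 fold change above 0. Kcnq5 (chromosome 1, 21398403 to 21961942, minus strand) had 10.04, 12.05, 6.57 and 10.1 CPM in IUGR and 4.44, 4.50, 5.88 and 6.06 CPM in sham samples, from counts of 48 to 196. The groups did not overlap, and T1-4 was closest to the sham samples. The means were 9.69 ± 2.28 and 5.22 ± 0.870 CPM (SD, n = 4), and the log2 fold change of 0.89 (SE 0.24) had an adjusted p of 0.113 (edgeR), with 0.0181 by DESeq2 and a range of 0.0181 to 0.489 over the alternatives. Unlike most of the genes above, its highest sham values were in the S3 samples. Kcnq3, a subunit of neuronal M-channels, had a log2 fold change of 0.41 (SE 0.24).

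Kv1 (Kcna) and Kv3 (Kcnc) genes, known for axonal low-threshold currents and for fast repolarization of fast-spiking neurons, had medians of 0.17 and 0.11. Kcna1 had 9.82, 11.6, 4.55 and 3.88 CPM in IUGR and 7.03, 9.52, 11.8 and 14.2 CPM in sham samples. The groups overlapped, with T1-4 and T1-5 lowest of all, and the log2 fold change was −0.51 (SE 0.37), with an adjusted p of 0.844 (edgeR). Its neighbour on chromosome 6, Kcna6, had 0.30 (SE 0.22). Kcna3, most abundant of the class per kilobase and also a channel of lymphocytes and microglia, had 8.24, 6.88, 9.69 and 9.20 CPM in IUGR and 8.69, 9.87, 7.77 and 6.84 CPM in sham samples, with 0.04 (SE 0.20).

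Of the Kv3 genes, Kcnc1 had 20.8, 18.7, 19.0 and 16.8 CPM in IUGR and 16.5, 26.1, 14.5 and 12.9 CPM in sham samples, with a log2 fold change of 0.11 (SE 0.22). S1-6 was again above every other sample. Kcnc2 had 6.29, 7.81, 9.78 and 16.2 CPM in IUGR and 13.4, 5.97, 7.14 and 3.92 CPM in sham samples, with 0.40 (SE 0.40). Without S3-4, the median of the Kv3 class was −0.02.

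The Kcnh genes encode the eag, erg and elk channels (Kv10 to Kv12), which act near the resting potential, and the eag gene Kcnh1 is also known from cell cycle control. The median log2 fold change was 0.11, with 5 of 7 above 0, and it was −0.07 without S3-4. Kcnh7 (chromosome 2, 62693414 to 63184287, minus strand) had 100.3, 88.0, 95.4 and 104 CPM in IUGR and 81.0, 83.0, 74.5 and 91.4 CPM in sham samples, with a log2 fold change of 0.23 (SE 0.12) and an adjusted p of 0.537 (edgeR). S3-4 alone among sham samples reached the IUGR range. Kcnh1 had 2.55, 6.39, 7.42 and 10.5 CPM in IUGR and 13.1, 14.7, 6.59 and 10.1 CPM in sham samples. Its log2 fold change, −0.73 (SE 0.39), was the lowest of the 54, with an adjusted p of 0.611 (edgeR), and the groups overlapped.

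Genes that work with these channels were read from a list of 35 partners, of which 30 were tested. None was called, against 1.46% of all genes. At an unadjusted p under 0.05, 8 of the 30 were higher in IUGR and 1 was lower, against 4.46% and 6.62% of all genes, and the median log2 fold change was 0.38. Fgf12, an intracellular FGF homolog that binds sodium channel alpha subunits, had 10.4, 19.1, 10.1 and 21.4 CPM in IUGR and 5.82, 10.3, 8.63 and 7.27 CPM in sham samples, with 0.93 (SE 0.30) and an adjusted p of 0.197 (edgeR). Kcnip4, a calcium-binding partner of Kv4 channels, had 2.25, 7.44, 2.44 and 4.71 CPM in IUGR and 1.94, 2.42, 1.33 and 0.927 CPM in sham samples, with 1.36 (SE 0.46) and an adjusted p of 0.229 (edgeR). The 1 lower gene was Kcne2, a beta subunit of Kv7 and erg channels that is also on the choroid plexus list. It had 0.450, 18.7, 0.421 and 26.6 CPM in IUGR and 175, 117, 145 and 139 CPM in sham samples, with a log2 fold change of −3.63 (SE 0.96) and an adjusted p of 0.105 (edgeR).

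Of 27 other cation channel genes, such as the Hcn, Kcnj and Kcnk families, 25 were tested and none was called, with 4 higher and 2 lower at an unadjusted p under 0.05 and a median of 0.22. Over all genes these shares were 4.46% and 6.62%, and 2 of 25 lower is near the latter. A log2 fold change above 0 was found for 20 of the 25, against 44.5% of all genes. The 2 lower genes were Kcnk1 and Kcnj13, a pair of potassium channels without a voltage sensor. Kcnj13, an inward rectifier on the choroid plexus list, had a log2 fold change of −3.10 (SE 0.86). Kcnk1, a leak channel, had 5.02, 10.4, 7.58 and 9.81 CPM in IUGR and 15.8, 16.8, 15.9 and 13.97 CPM in sham samples, without overlap, with −0.93 (SE 0.23) and an adjusted p of 0.0915 (edgeR).

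Gene length is a feature that the symbol pattern did not use, and it varied widely among the channel genes. Their median gene span was 94.9 kb, against 26.0 kb for all genes tested. It was 310 kb for the 26 channel genes of at least 100 kb and 18.8 kb for the 28 shorter ones. Among genes of at least 100 kb, 23 of 26 channel genes (88.5%) had a log2 fold change above 0, against 53.7% of all 2205 such genes, with medians of 0.36 and 0.02. Among shorter genes, 21 of 28 channel genes (75%) were above 0, against 42.7% of all, with medians of 0.13 and −0.03. The part of gene length in the channel values was not tested.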

How the data were processed

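Total RNA was depleted of ribosomal RNA and sequenced as single reads from stranded libraries, with all 8 libraries in 1 lane. The authors deposited the raw counts of reads on each gene, not normalized. The submitters' processing notes name Novoalign 2.8 and mm10; the counting program, annotation release and strand setting are not given in the sources used here. Of the identifiers, 16124 matched GENCODE M21 (GRCm38) and 273 did not. Protein-coding genes whose mean count was 10 or more but below 50000 entered the comparison, run by edgeR 4.0.16 under R 4.3.3 (TMM, quasi-likelihood test, Benjamini-Hochberg over all genes tested). The method was tested on simulated data with 200 genes changed 4-fold. There edgeR recovered 196 with 10 false calls, DESeq2 197 with 24 and limma-voom 196 with 7. Smaller changes were not simulated. Standard errors are those implied by the F statistic. All columns of the table were used. Other strand genes overlap 10 of the 54 members and a gene of the same strand overlaps Kcnq5.

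The channel genes, classes and lists were chosen with earlier results of these data known. A few items are not reported here. Otherwise, values per sample are given for the 10 members with the lowest p and, in each class, for the most abundant per kilobase and the one with the largest change at a mean count of at least 50. Alternatives were DESeq2 1.42.0, limma-voom (limma 3.58.1), edgeR's robust fit, other size factors and filters, all biotypes, sham samples of 1 prefix alone and each sample left out. Depth limits precision for members of low count.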

Additional observations from a re-analysis of the deposited data

Results flagged for a closer look

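In 6 of the 108 sets of 4 values (54 genes in each of 2 groups), 1 sample lay far from the other 3 by Dixon's criterion at the 95% level, and chance gives about 1 in 20. Of these, 4 are reported here. In the sham group, S1-6 was far above the others for Cacna1c (36.3 CPM, others 20.9 to 23.1), Cacna1d (14.98 CPM, others 8.13 to 9.20) and Kcnf1 (7.19 CPM, others 0.784 to 1.76), and S1-4 was far above for Cacnb2 (11.1 CPM, others 7.70 to 8.16).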

How the results depend on the processing

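Of the 54 channel genes, 1 was called with the DESeq2 Wald test, with limma-voom and in edgeR with no count filter (Scn9a each time), against 3.10%, 2.39% and 1.61% of all genes, and 0 to 1 with each sample left out, against 0.299% to 2.17%. The number higher in IUGR at an unadjusted p under 0.05 was 4 against sham samples of prefix S1 alone (2.47% of all genes) and 13 against those of prefix S3 alone (4.66%), and 5 to 17 with each sample left out (2.74% to 6.17%). The number lower at that p was 1 against S1 alone (5.22%) and 0 to 2 with each sample left out (5.22% to 7.03%). The number without overlap and higher in IUGR was 6 against S1 alone (6.73% of all genes), 18 against S3 alone (7.19%) and 3 to 14 with each sample left out (2.451% to 4.46%). The number lower was 1 (8.89%), 3 (10.9%) and 0 to 1 (5.63% to 7.25%). Class medians of the log2 fold change that moved by more than the replicate SD were 0.48 for Kv3, −0.39 for alpha2delta and 0.60 for the modifier subunits against S3 alone, and 0.36 for alpha2delta against S1 alone. With each sample left out, the medians ranged from −0.069 to 0.27 for Kv10 to Kv12 and from 0.083 to 0.65 for the modifier subunits. Single log2 fold changes were followed only for the members whose values per sample are given above, and reversals of other members are not listed. Those that reversed against S1 alone were −0.075 for Cacna1c, 0.36 for Cacna2d1 and −0.054 for Cacnb3. Reversed as well were −0.13 for Kcna3, −0.18 for Kcnc1 and −0.21 for Kcns2, which was also −0.077 with limma-voom. With each sample left out, the ranges of the same members that crossed 0 were −0.020 to 0.28 for Cacna1h, −0.20 to 0.092 for Cacna2d1 and −0.048 to 0.11 for Cacnb3. Ranges also crossed 0 for Kcna3 (−0.046 to 0.17), Kcnc1 (−0.016 to 0.40) and Kcns2 (−0.20 to 0.65). The cause of these differences was not tested. Comparisons with S1 or S3 alone rest on 2 sham samples. The members with the lowest mean counts, such as Scn4b, Cacna1s and Kcnd1, had standard errors of 0.44 to 0.56 on the log2 scale, so precision was low there. No paired analysis was possible because the replicate numbers of the groups do not tie samples to each other.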
